A study of Rattus norvegicus with 6 samples.

Results

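The genes described here encode the metalloproteases that cut the extracellular matrix or shed proteins from the cell surface, together with their tissue inhibitors. They were taken from the gene table of a rat study by symbol: the matrix metalloproteinases (Mmp), the tissue inhibitors of metalloproteinases (Timp), the ADAM and ADAMTS proteases and the ADAMTS-like proteins. Of 74 symbols of these families in the table, 60 had at least 30 counts summed over the 6 libraries and were kept as members, out of 43350 table rows. They were 16 MMP, 18 ADAM, 18 ADAMTS, 4 ADAMTS-like and 4 TIMP genes. The 14 symbols left out included 11 without a count in any library. The nearest of the others were Adam30 with 10 counts, Adamts19 with 7 and Adam3a with 4, and the nearest kept were Adam5 with 36 and Mmp10 with 38.

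The study compared male Sprague-Dawley rats with chronic constriction injury (CCI), in which ligatures are tied loosely around the sciatic nerve, with sham rats whose nerve was exposed without ligation. The labels give the sham treatment only as none. Lumbar 4 to 6 dorsal root ganglia (DRG), which hold the cell bodies of the sensory neurons with their glia, vessels and connective tissue, were taken on day 11. RNA of 3 CCI and 3 sham samples was depleted of ribosomal RNA and sequenced, and the libraries held 75423546 to 87615743 counts. The labels speak of a pooled sample where the methods describe 1 rat per sample, so the spread between libraries is taken as that between samples.

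MMPs are zinc proteases made as inactive precursors. By substrate and anchoring they are called collagenases, gelatinases, stromelysins and membrane-type enzymes, and TIMPs block them by filling the active site. ADAM10 and ADAM17 release the outer parts of membrane proteins such as Notch, tumour necrosis factor and growth factor precursors, whereas several ADAMs, among them ADAM11, ADAM22 and ADAM23, lack a working protease site and serve as receptors. ADAMTS proteases are secreted, and they cut proteoglycans, trim procollagens or process other matrix proteins.

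A run of 10 MMP genes lies on chromosome 8 from 5522739 to 5901049 (378 kb) in the coordinates of the deposited table, whose rat genome is named only as V101. It held 5 members, Mmp13, Mmp12, Mmp3, Mmp10 and Mmp8, and 5 genes without a count, Mmp1b, Mmp1, Mmp27, Mmp20 and Mmp7. The promoters of the 5 members are shown because these neighbours had different patterns of counts, with Mmp3 higher and Mmp13 lower in every CCI library and the groups overlapping in Mmp8, Mmp10 and Mmp12. Each runs from 250 bases before to 50 bases after the start of the gene (RefSeq, build GRCr8), and capitals mark TGAGTCA or its reverse complement TGACTCA, the core site of the AP-1 (Fos and Jun) factors.
Mmp13: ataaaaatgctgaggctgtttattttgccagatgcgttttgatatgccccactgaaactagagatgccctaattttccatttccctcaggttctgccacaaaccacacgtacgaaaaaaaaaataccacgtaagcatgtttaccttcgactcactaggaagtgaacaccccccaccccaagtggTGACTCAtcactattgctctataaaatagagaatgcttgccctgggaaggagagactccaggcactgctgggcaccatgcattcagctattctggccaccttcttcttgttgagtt
Mmp12: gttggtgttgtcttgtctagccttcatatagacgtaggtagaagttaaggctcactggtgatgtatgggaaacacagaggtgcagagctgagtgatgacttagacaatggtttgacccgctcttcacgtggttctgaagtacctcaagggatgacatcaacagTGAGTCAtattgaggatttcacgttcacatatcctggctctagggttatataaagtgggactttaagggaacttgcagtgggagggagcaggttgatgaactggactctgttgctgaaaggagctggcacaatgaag
Mmp3: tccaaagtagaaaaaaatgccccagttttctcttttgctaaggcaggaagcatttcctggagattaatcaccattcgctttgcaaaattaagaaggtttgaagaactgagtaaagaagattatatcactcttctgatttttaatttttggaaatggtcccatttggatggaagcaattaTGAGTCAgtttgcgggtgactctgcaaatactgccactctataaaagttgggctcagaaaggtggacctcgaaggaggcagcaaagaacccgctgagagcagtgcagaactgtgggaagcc
Mmp10: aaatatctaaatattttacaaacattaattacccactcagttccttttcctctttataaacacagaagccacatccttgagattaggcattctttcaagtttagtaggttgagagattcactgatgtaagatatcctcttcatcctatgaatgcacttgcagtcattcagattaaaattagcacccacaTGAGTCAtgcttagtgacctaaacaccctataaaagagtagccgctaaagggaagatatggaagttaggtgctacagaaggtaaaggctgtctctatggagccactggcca
Mmp8: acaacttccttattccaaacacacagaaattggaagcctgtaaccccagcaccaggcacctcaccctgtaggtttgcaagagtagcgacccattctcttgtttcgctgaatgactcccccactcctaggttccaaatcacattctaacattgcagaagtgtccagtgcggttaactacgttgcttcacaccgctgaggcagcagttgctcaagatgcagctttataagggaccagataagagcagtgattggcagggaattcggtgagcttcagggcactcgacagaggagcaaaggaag

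These windows are chr8:12782579-12782878 for Mmp13, chr8:12866402-12866701 for Mmp12, chr8:12925031-12925330 for Mmp3, chr8:12974457-12974756 for Mmp10 and chr8:13008640-13008939 for Mmp8, all on the plus strand of GRCr8. They are not to be set beside the deposited coordinates, which are of another build. The site began 66 bases before the start in Mmp13, 87 in Mmp12, 71 in Mmp3 and 61 in Mmp10, and these letters were not in the window of Mmp8. It was also present in Mmp1 and Mmp7, both at 0 counts, so that 6 of the 10 promoters in the run held it. Of all 33469 promoter entries of the same length 4.63% held it on either strand. Of the 50 entries of members 5 held it (10%). By gene it was found in 5 of the 42 members with an entry, the fifth being Adam19. Mmp16 and Mmp19 had no entry. A match describes the letters alone. Mmp3 and Mmp10 are close relatives, and reads shared between them may have been assigned to either.

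The inhibitors were more abundant than the MMPs in every library. Levels between genes are compared as FPKM as deposited, fragments scaled by row length and library size. The 4 Timp genes summed to 249 to 275 FPKM per library and the 16 Mmp genes to 83.1 to 91.0, a ratio of 2.73 to 3.06. The ratio was 2.88, 3.02 and 3.03 in CCI 1, 2 and 3 and 2.73, 2.95 and 3.06 in sham 1, 2 and 3, and the groups overlapped. Timp2 and Timp3 together made 96.1% to 97.4% of the Timp sum.

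Timp2, which also takes part in activation of pro-MMP2, had the highest level of any member, at 168, 165 and 179 FPKM in CCI 1, 2 and 3, against 144, 167 and 170 FPKM in sham 1, 2 and 3. Timp3, the inhibitor held in the matrix, was second, at 84.9, 84.8 and 86.3 FPKM in the CCI libraries and 96.4, 78.5 and 76.7 FPKM in the sham libraries. Neither separated the groups. Below them came the ADAM receptors Adam23, at 43.6 to 113 FPKM, and Adam22, at 36.3 to 53.8 FPKM, and then the protease Adam19, at 37.0 to 49.2 FPKM. Adam23 and Timp3 exchanged places between libraries, since Adam23 was above Timp3 in CCI 2, CCI 3 and sham 3 and below it in the others. The highest proteases of the MMP family were the membrane-type Mmp15 (14 to 25.8 FPKM) and Mmp14 (16.1 to 23.9 FPKM) and the gelatinase Mmp2 (13.3 to 20.9 FPKM), whose ranges overlapped. The sheddases Adam10 (14.9 to 16.2 FPKM) and Adam17 (11 to 14.5 FPKM) were close to them.

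**Figure D1:**
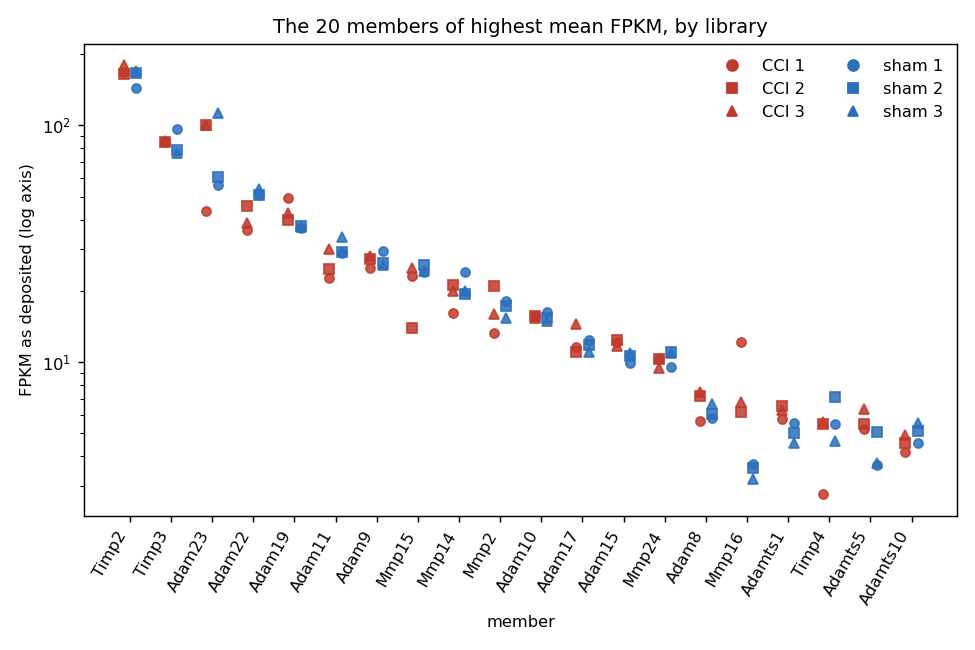
FPKM of the 20 members of highest mean FPKM (log axis), 1 point per library, CCI in red and sham in blue, with shapes for libraries 1, 2 and 3. Timp2 and Timp3 lead with narrow ranges, Adam23 spreads from 43.6 to 113 FPKM in both groups, and Mmp16 stands apart between the groups.

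Expression was tested for the 49 members with a mean FPKM of at least 0.5, in a fit of edgeR's quasi-likelihood test over 26663 rows, and fold changes are CCI against sham. At the limits of the study (p below 0.05 without adjustment, and 0.58 or more on the log2 fold change scale in either direction) 3 members were called higher, 6.12% of those tested, against 2.57% of all rows. They were Mmp3, Mmp16 and Mmp19, and Mmp3 was tested only because its CCI level carried it over the filter. No member was called lower, where 1.26% of all rows were. By p under 0.05 alone, 9 members were higher, Mmp3 among them (18.4%, all rows 5.57%), and 2 lower (4.08%, all rows 5.18%). Every CCI library lay above every sham library in 9 tested members (18.4%, all rows 8.63%) and below it in 4 (8.16%, all rows 8.70%).

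After adjustment over all rows no member reached 0.05 in edgeR, where 0.0638% of rows passed as higher and 0.0300% as lower. With DESeq2 at the same limit 5 members passed, Mmp16, Mmp19, Timp1 and Adamts4 as higher and Adam22 as lower, against 1.60% and 1.20% of all rows. The median log2 fold change of the tested members was -0.04, beside 0.01 over all rows, with 20 members above 0 and 29 below. Members enter the test through a filter on level, so a member that is high in 1 group can pass because of that group, which was the case for Mmp3 and Mmp8. The 11 untested members were Adam21, Adam32, Adam5, Adam6a, Adam7, Adamts18, Mmp10, Mmp12, Mmp13, Mmp21 and Mmp9.

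**Figure D2:**
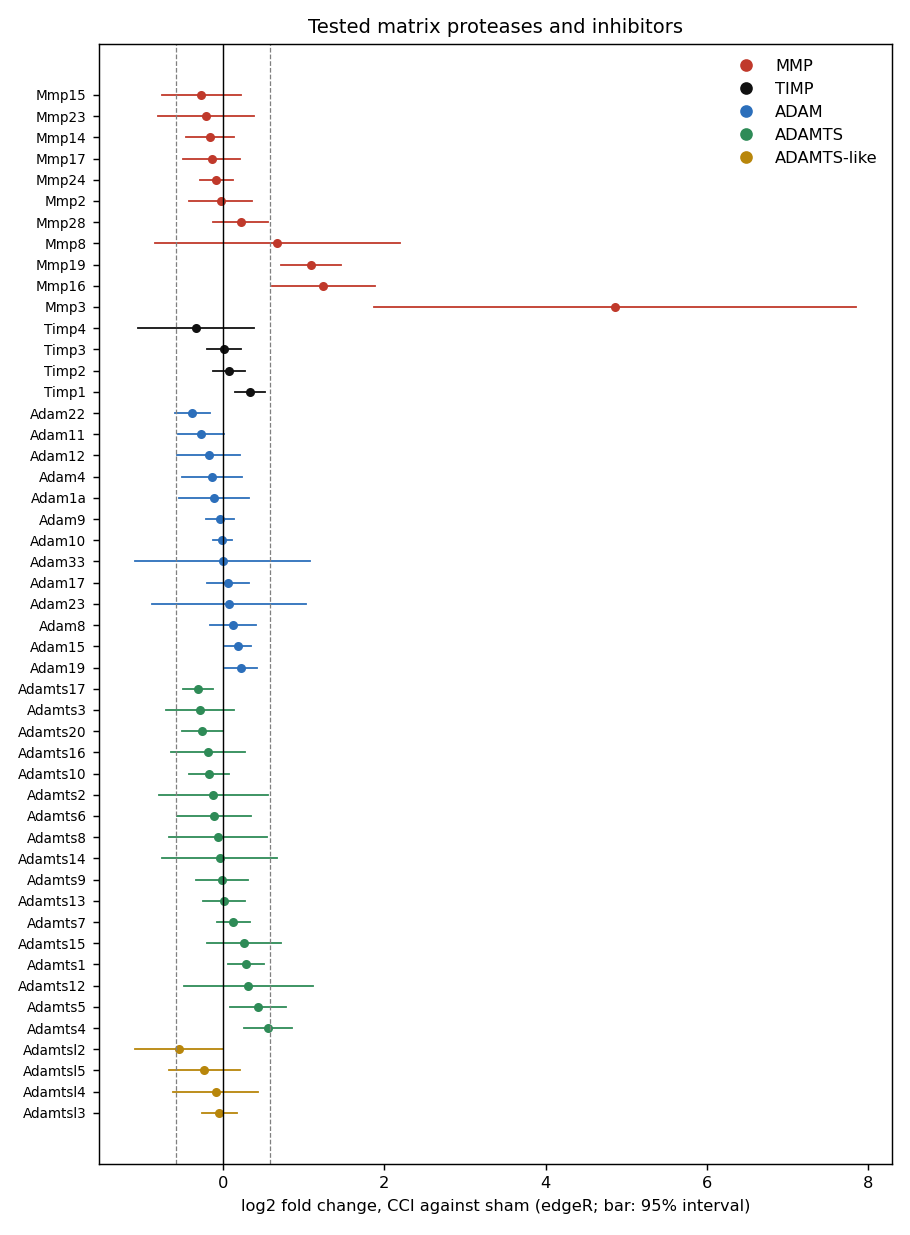
Log2 fold change, CCI against sham, of the 49 tested members by family, with dashed lines at 0.58 in either direction. Bars are 95% intervals derived from the edgeR test. Only Mmp3, Mmp16 and Mmp19 combine an interval off 0 with a value beyond the dashed line. Mmp3 has the widest interval and passed the filter only through its CCI level.

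Mmp3 (stromelysin 1; chromosome 8, 5676665 to 5698579), which cuts proteoglycans, fibronectin and other MMP precursors, was nearly absent from the sham DRG. It had 216, 125 and 98 counts in CCI 1, 2 and 3, against 0, 15 and 0 counts in sham 1, 2 and 3. Every CCI library was above every sham library, and CCI 1 was the highest. As counts scaled to library size (CPM) the means were 1.83 ± 0.729 for CCI and 0.0631 ± 0.109 for sham (SD, n = 3). The log2 fold change was 4.86 (SE 1.25). No p is read from this fit, since Mmp3 passed the filter on level only through its CCI mean (0.977 FPKM, sham 0.0327 FPKM). The size rests on the 15 counts of sham 2. Without that library both sham values are 0 and the fitted 10.23 is no measure of size, and with any other library left out it lay between 4.27 and 5.06. Its level stayed low, at 0.690 to 1.42 FPKM in the CCI libraries.

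Mmp16 (MT3-MMP; chromosome 5, 31568419 to 31810484), a membrane-type enzyme that activates pro-MMP2, had 3816, 1902 and 1988 counts in CCI 1, 2 and 3, against 1259, 1106 and 1035 counts in sham 1, 2 and 3. The groups did not overlap, and CCI 1 was well above the other CCI libraries. The mean of 32.3 ± 12.9 CPM was 2.37 times the sham mean of 13.6 ± 0.953 CPM (SD, n = 3), with a log2 fold change of 1.24 (SE 0.26, unadjusted p = 0.00266, edgeR adjusted p = 0.187). Without CCI 1 the log2 fold change was 0.87 (unadjusted p = 2.05e-04 in edgeR).

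Mmp19 (chromosome 7, 3216331 to 3224224), a secreted MMP that cuts basement membrane proteins, had 902, 827 and 731 counts in CCI 1, 2 and 3, against 499, 322 and 397 counts in sham 1, 2 and 3. All CCI libraries were close together and above all sham libraries, at 10.3 ± 0.754 CPM against 4.85 ± 0.813 CPM (SD, n = 3). The mean was 2.13 times that of sham, with a log2 fold change of 1.09 (SE 0.16, unadjusted p = 2.91e-04, edgeR adjusted p = 0.0935), the smallest p of any member. It stayed called with each library left out, between 0.98 and 1.22 on the log2 scale.

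As a sum, the macrophage markers moved in the same direction as these 3 genes. Of 9 markers tested, 5 were called higher (all rows 2.57%) and none lower (all rows 1.26%). The sum was 102 to 141 CPM in the CCI libraries and 69.8 to 87.8 CPM in the sham libraries. Aif1, Itgam and Adgre1 overlapped between the groups, and Adgre1 was even (log2 fold change 0.02). The part of these markers in the values of Mmp3, Mmp16 and Mmp19 was not tested. In bulk tissue, fewer cells of a type and less RNA per cell cannot be told apart, and the same holds for more.

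The other genes of the chromosome 8 run were low, and they did not share a direction. Mmp10 (stromelysin 2), next to Mmp1, had 15, 23 and 0 counts in CCI 1, 2 and 3 and none in the sham libraries. Mmp12, the macrophage elastase, had 56, 23 and 0 counts in CCI 1, 2 and 3, against 0, 0 and 26 counts in sham 1, 2 and 3. CCI 3 as well as sham 1 and sham 2 had no count for Mmp12, and the groups overlapped. Mmp10 was counted in CCI 1 and CCI 2 alone, and it is a member only through those libraries. With no filter on level it was tested, but no p is read from that fit. No fold is usable, since sham was at 0.

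Mmp13 (collagenase 3) went the other way from Mmp3. It had 35, 30 and 28 counts in CCI 1, 2 and 3, against 115, 99 and 62 counts in sham 1, 2 and 3. Every sham library was above every CCI library, which makes it the only untested member whose groups did not overlap. The means were 0.391 ± 0.0353 CPM in CCI and 1.10 ± 0.307 CPM in sham (SD, n = 3). With no filter on level it was tested and called lower, with a log2 fold change of -1.49 (SE 0.33, unadjusted p = 0.00286, edgeR adjusted p = 0.237).

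Mmp8, the collagenase of neutrophil granules, had 184, 119 and 105 counts in CCI 1, 2 and 3, against 192, 48 and 34 counts in sham 1, 2 and 3. In CPM sham 1 (2.19) lay within the range of the CCI libraries (1.38 to 2.27), so the groups overlapped. The log2 fold change was 0.67 (SE 0.63). Without sham 1 the log2 fold change was 1.75. No p is read from either fit, since Mmp8 passed the filter on level only through its CCI mean (0.637 FPKM, sham 0.395 FPKM). Mmp9 (gelatinase B), also a neutrophil granule protein, had the same shape, with 155, 52 and 50 counts in CCI 1, 2 and 3, against 105, 9 and 12 counts in sham 1, 2 and 3. The neutrophil markers summed to 21.9 CPM in sham 1, against 6.30 and 7.29 CPM in the other sham libraries and 7.93 to 11.1 CPM in the CCI libraries. None of their 4 tested genes was called. In CCI 1, where Mmp9 was highest, the marker sum was 11.1 CPM. Sham 1 was also the library with the most skeletal muscle RNA, at 228 CPM over 7 markers against 8.18 to 36.4 CPM elsewhere. The part of either in the values of Mmp8 and Mmp9 was not tested.

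**Figure D3:**
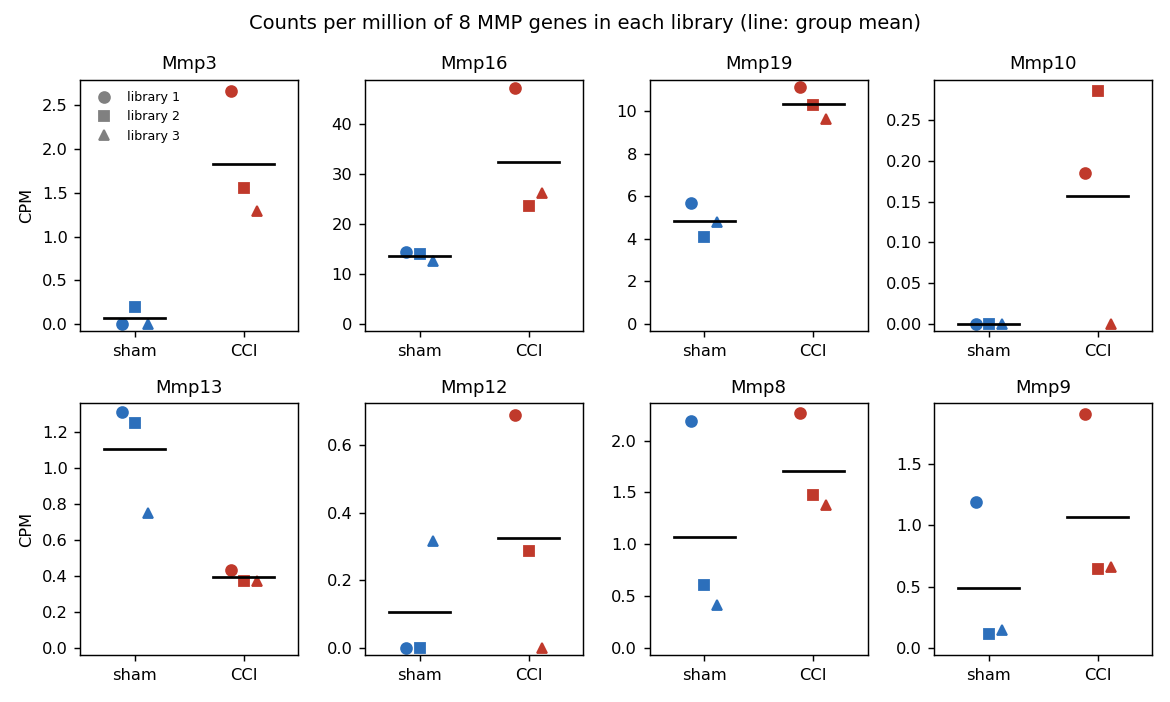
CPM (linear axes, own scale in each panel) of 8 MMP genes, 1 point per library with shapes for libraries 1, 2 and 3, and a line at the group mean. Mmp3, Mmp16 and Mmp19 are higher in every CCI library, Mmp13 is lower in every CCI library, and sham 1 lies among the CCI values for Mmp8 and Mmp9.

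The abundant MMPs did not separate the groups. Mmp2 (gelatinase A), which degrades denatured collagen and type IV collagen, had a log2 fold change of -0.03 (95% interval -0.42 to 0.36), and Mmp14 (MT1-MMP), its main activator, of -0.16 (-0.46 to 0.14). Mmp15 (MT2-MMP) measured 121, 73.2 and 131 CPM in CCI 1, 2 and 3, against 126, 137 and 129 CPM in sham 1, 2 and 3. Its log2 fold change of -0.27 (-0.76 to 0.22) came from CCI 2 alone, which was below every other library, and without CCI 2 it was -0.05. Mmp24 (MT5-MMP), a membrane-type enzyme of neurons, was at -0.08 (-0.28 to 0.12). Of the 6 membrane-anchored MMPs tested, Mmp16 was the only one with a value above 0, and the other 5 lay between -0.27 and -0.08.

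Among the inhibitors only Timp1 differed, and by little. Timp1 (chromosome X, 1359714 to 1370760), known as a gene that responds to injury and cytokines, measured 32.6, 28.9 and 28.7 CPM in CCI 1, 2 and 3 and 25.0, 23.3 and 23.3 CPM in sham 1, 2 and 3. The groups did not overlap, and the mean was 1.26 times that of sham, with a log2 fold change of 0.33 (SE 0.08, unadjusted p = 0.00442, edgeR adjusted p = 0.222), below the 0.58 limit. The row implies a length of 7887 bases and lies within that of Syn1, a neuronal gene on the opposite strand with 83778 counts. Whether counting used strand is not given in the sources used here, and reads of the 2 genes may not be told apart.

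Timp2 was at 0.08 (95% interval -0.12 to 0.27) and Timp3 at 0.01 (-0.20 to 0.22) on the log2 fold change scale. Timp4 measured 5.16, 10.2 and 10.3 CPM in CCI 1, 2 and 3 and 10.2, 13.4 and 8.78 CPM in sham 1, 2 and 3. Only CCI 1 stood below the sham range, and the log2 fold change of -0.34 (unadjusted p = 0.298, edgeR) was -0.08 without CCI 1. The Timp3 and Timp4 rows also lie within neuronal synapsin genes, Syn3 and Syn2, on the other strand.

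Among the ADAMs no gene was called at the study's limits, and changes were small. The 13 tested genes lay between -0.38 and 0.22 on the log2 fold change scale. Among them, the Adam8 row also carries Tubgcp2, so Adam8 was not measured apart from it, and the Adam1a row is marked as a pseudogene. The sheddase Adam10 was among the most even members, at 161 to 173 CPM in all 6 libraries, with a log2 fold change of -0.01 (95% interval -0.13 to 0.11). Adam17 was at 0.06 (-0.20 to 0.32) and Adam9 at -0.04 (-0.21 to 0.14).

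Adam19 (chromosome 10, 31146107 to 31240582), a protease that cuts neuregulin, measured 340, 273 and 293 CPM in CCI 1, 2 and 3, against 255, 262 and 260 CPM in sham 1, 2 and 3. All CCI libraries were higher, by a log2 fold change of 0.22 (SE 0.08, unadjusted p = 0.0371, edgeR adjusted p = 0.423). Without CCI 1 it was 0.13 (unadjusted p = 0.0679, edgeR), and the p was above 0.05 in 5 of the 6 fits with a library left out. Adam15, a transmembrane ADAM with an integrin-binding domain, measured 40.4, 40.9 and 38.7 CPM in CCI 1, 2 and 3 and 33.0, 35.5 and 36.8 CPM in sham 1, 2 and 3. This gave a log2 fold change of 0.19 (SE 0.07, unadjusted p = 0.0273, edgeR adjusted p = 0.385), and the p was above 0.05 in 4 of these 6 fits.

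Of the 3 tested receptors without protease activity, Adam22 alone passed p under 0.05. Adam22 (chromosome 4, 22700618 to 23004045), the neuronal receptor of LGI proteins, measured 545, 680 and 576 CPM in CCI 1, 2 and 3, against 761, 769 and 818 CPM in sham 1, 2 and 3. Every CCI library was below every sham library, by a log2 fold change of -0.38 (SE 0.09, unadjusted p = 0.00455, edgeR adjusted p = 0.223), and the mean was 0.767 times that of sham. The row also carries the name of a neighbouring gene model, AABR07059527. Adam11 measured 136, 147 and 178 CPM in CCI 1, 2 and 3, against 174, 177 and 206 CPM in sham 1, 2 and 3, and the groups overlapped (log2 fold change -0.27, unadjusted p = 0.0570, edgeR). The 6 markers of sensory neurons summed to 8684 to 9009 CPM in the CCI libraries and 9320 to 10417 CPM in the sham libraries, with 2 passing p under 0.05 in each direction. Their part in the lower Adam22 was not tested.

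Adam23 had the widest range of the abundant members, and it did not follow surgery. It had 25618, 58346 and 54954 counts in CCI 1, 2 and 3, against 35676, 35050 and 68227 counts in sham 1, 2 and 3. CCI 2, CCI 3 and sham 3 were high and the other 3 libraries low, with the highest 2.62 times the lowest in CPM. The log2 fold change was 0.07 (95% interval -0.88 to 1.02), and its sign depended on which library was kept.

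Of the LGI ligands of these receptors, Lgi3 was lower in every CCI library (134, 161 and 171 CPM in CCI 1, 2 and 3, against 189, 212 and 215 CPM in sham 1, 2 and 3), by a log2 fold change of -0.40 (SE 0.10, unadjusted p = 0.00713, edgeR adjusted p = 0.260). Lgi1 was even at 129 to 137 CPM (log2 fold change -0.04) and Lgi4, the ligand made by Schwann and satellite glial cells, was at 0.10. None of the 4 ligands was called at the study's limits.

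The ADAMTS proteases that cut the hyaluronan-binding proteoglycans held 3 of the 9 members higher by p alone. These were 3 of 7 tested in the class (42.9%), beside 5.57% of all rows. Adamts4 (aggrecanase 1; chromosome 13, 89622632 to 89634419) measured 18.0, 15.4 and 14 CPM in CCI 1, 2 and 3 and 10.3, 10.2 and 11.8 CPM in sham 1, 2 and 3. The mean was 1.47 times that of sham, with a log2 fold change of 0.56 (SE 0.12, unadjusted p = 0.00334, edgeR adjusted p = 0.202), just under the 0.58 limit. It passed both limits without CCI 3 (0.64) or without sham 3 (0.63).

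Adamts5 (aggrecanase 2) measured 192, 201 and 232 CPM in CCI 1, 2 and 3, against 135, 188 and 140 CPM in sham 1, 2 and 3. The groups did not overlap but sham 2 came close to CCI 1, and the log2 fold change was 0.43 (SE 0.14, unadjusted p = 0.0217, edgeR adjusted p = 0.360). Without sham 2 it was 0.60 and called. Without CCI 3, sham 1 or sham 3 the p rose above 0.05, to as much as 0.0713 in edgeR. The row implies a length of 36755 bases, so that it ranks far lower in FPKM (3.67 to 6.36) than in CPM, and it overlaps an unnamed row on the other strand with 5745 counts.

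Adamts1 measured 27.8, 31.4 and 30.0 CPM in CCI 1, 2 and 3 and 26.6, 24.4 and 22.2 CPM in sham 1, 2 and 3, higher in every CCI library by a log2 fold change of 0.28 (SE 0.09, unadjusted p = 0.0187, edgeR adjusted p = 0.348). Without CCI 2 or without sham 3 the p was above 0.05. The other 4 genes of this class did not share the direction. Adamts15 was at 0.26, Adamts9 at -0.01, Adamts8 at -0.06 and Adamts20 at -0.26 on the log2 fold change scale, none with p under 0.05.

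Outside this class, Adamts17 (chromosome 1, 127802978 to 128124171) was lower in every CCI library. It measured 13.8, 13.8 and 13.9 CPM in CCI 1, 2 and 3 and 16.9, 16.4 and 18.1 CPM in sham 1, 2 and 3. The spread within each group was small, and the log2 fold change was -0.31 (SE 0.08, unadjusted p = 0.00555, edgeR adjusted p = 0.239). With each library left out its p stayed under 0.05, at 0.0107 to 0.0251 in edgeR.

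The 3 procollagen N-propeptidases Adamts2, Adamts3 and Adamts14, which trim fibrillar collagen precursors, lay between -0.28 and -0.04, none with p under 0.05. The ADAMTS-like proteins share the non-catalytic domains of the family and bind fibrillin and other matrix proteins. All 4 were below 0, from -0.54 to -0.05, and none was called. Adamtsl2 measured 1.73, 2.67 and 1.74 CPM in CCI 1, 2 and 3 and 3.00, 2.70 and 3.23 CPM in sham 1, 2 and 3. The groups did not overlap, but CCI 2 nearly reached sham 2, and the log2 fold change of -0.54 had an unadjusted p of 0.0515 (SE 0.23, edgeR). Without CCI 2 it was -0.78 and called. Adamtsl4 was at 83.2 CPM in sham 1 and at 47.0 to 60.0 CPM in the other libraries. Its log2 fold change of -0.09 became 0.22 without sham 1 (unadjusted p = 0.0366, edgeR). An unnamed row on the other strand with 48543 counts overlaps it.

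CCI 1 was the lowest of the 6 libraries in 24 of the 49 tested members and the highest in 11. The share over all rows was not computed, so these counts are not read as particular to the members. Its fibroblast markers were low as well, at a sum of 1649 CPM over 5 markers against 2481 to 2803 CPM in the other 5 libraries, and none of these markers was called between the groups. Adamts2 measured 15.3, 32.8 and 32.2 CPM in CCI 1, 2 and 3 and 27.8, 27.2 and 32.4 CPM in sham 1, 2 and 3. Adam33, an ADAM of mesenchymal cells, measured 1.39, 3.60 and 5.25 CPM in CCI 1, 2 and 3 and 3.99, 2.86 and 3.43 CPM in sham 1, 2 and 3. In both genes CCI 1 was far below the rest and the other libraries overlapped. Adamts12 was low in CCI 1 (16.8 CPM) and in sham 2 (15.9 CPM), beside 23.7 to 35.5 CPM elsewhere.

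Leaving out CCI 1 moved the log2 fold change of Adamts2 from -0.12 to 0.16, of Adam33 from -0.01 to 0.37, of Adamts12 from 0.31 to 0.59 and of Mmp2 from -0.03 to 0.11, none of them with p under 0.05. The part of the fibroblast RNA in these values was not tested.

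**Figure D4:**
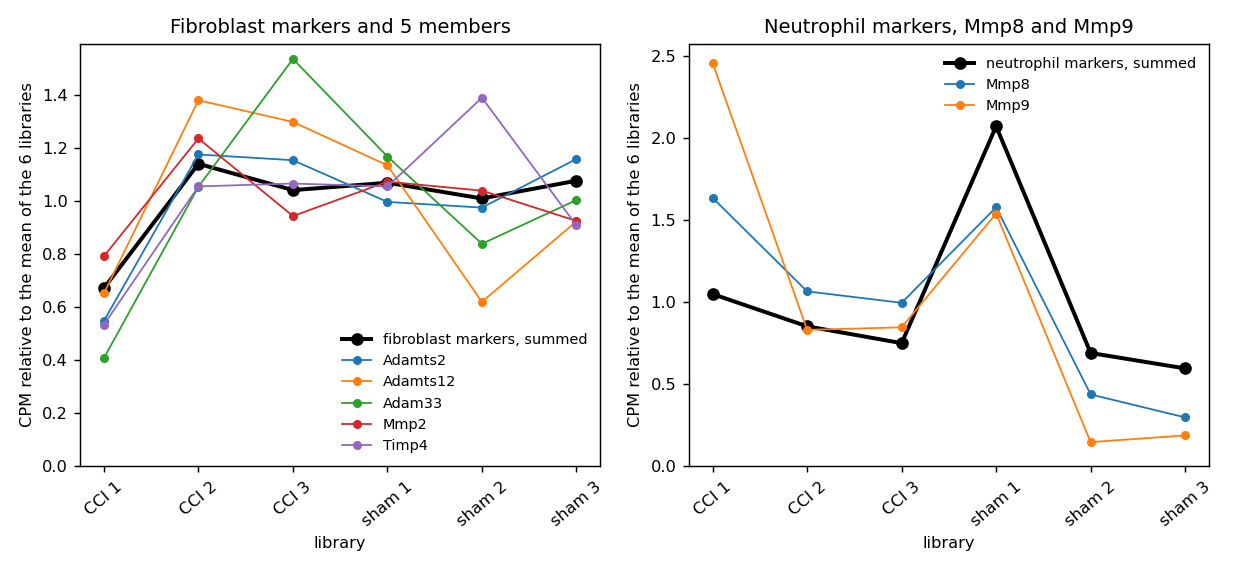
CPM relative to the mean of the 6 libraries (axis from 0), left for the summed fibroblast markers and 5 members and right for the summed neutrophil markers with Mmp8 and Mmp9; lines join the values of 1 gene or list and carry no order. CCI 1 is lowest for the fibroblast markers, Adamts2, Adam33, Mmp2 and Timp4, and sham 1 is highest for the neutrophil markers. The 5 members were chosen with their values known, and 11 tested members were highest in CCI 1.

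Of 41 other genes of matrix turnover listed, 34 were tested, 2 were called higher (all rows 2.57%) and 2 lower (all rows 1.26%) at the study's limits, and their median log2 fold change was 0.01. Serpina3n and Pcolce2 were not analysed here. In the plasminogen system, which cuts fibrin and activates MMP precursors, Plau (urokinase) measured 6.93, 6.08 and 4.43 CPM in CCI 1, 2 and 3 and 3.49, 3.34 and 3.54 CPM in sham 1, 2 and 3. It was higher in every CCI library, by a log2 fold change of 0.75 (SE 0.19, unadjusted p = 0.00660, edgeR adjusted p = 0.252). Without CCI 1 the called genes of the list were 2, Plau and Bcan.

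Serpinb2 (PAI-2), an inhibitor of urokinase, was below the level tested, at 201, 114 and 38 counts in CCI 1, 2 and 3, against 8, 19 and 0 counts in sham 1, 2 and 3. Like Mmp3 it was higher in every CCI library, from few counts.

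Bcan and Tll1 were the genes of the list called lower. Bcan (brevican), a proteoglycan that ADAMTS4 and ADAMTS5 cut, measured 29.5, 35.7 and 30.3 CPM in CCI 1, 2 and 3 and 55.7, 48.3 and 59.3 CPM in sham 1, 2 and 3, a log2 fold change of -0.77 (SE 0.11, unadjusted p = 2.83e-04, edgeR adjusted p = 0.0935). Tll1, a tolloid protease that processes procollagens, measured 11.9, 13.6 and 16.1 CPM in CCI 1, 2 and 3 and 21.0, 21.2 and 21.2 CPM in sham 1, 2 and 3, a log2 fold change of -0.61 (SE 0.12, unadjusted p = 0.00165, edgeR adjusted p = 0.154). In both, the groups did not overlap. Vcan (versican), another substrate of the same ADAMTS enzymes, was at -0.47 (SE 0.16, unadjusted p = 0.0248, edgeR adjusted p = 0.377). Ncan (neurocan), a further proteoglycan of this kind, was on the other side of 0. It measured 59.5, 50.8 and 42.0 CPM in CCI 1, 2 and 3, against 38.8, 40.6 and 43.8 CPM in sham 1, 2 and 3, and the groups overlapped (log2 fold change 0.31, unadjusted p = 0.0540, edgeR). Acan (aggrecan) was below the level tested, at 0.567 to 1.77 CPM. Tspan14, which escorts ADAM10 to the cell surface, was at -0.27 (unadjusted p = 0.0147, edgeR), beside the even Adam10. Reck, a membrane-anchored inhibitor of MMPs, was at 0.15 with a p of 0.169 in the same test.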

How the data were processed

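The authors mapped reads of strand-marked, ribosomal RNA depleted libraries to a rat genome given as V101 (HISAT2 2.0 per the submitters' processing notes) and estimated expression with StringTie 1.3.0. The counts are whole reads per gene row that the authors deposited without normalization. The FPKM values deposited beside them follow these counts scaled by column total and row length, less exactly in rows of few counts. An FPKM of 0 is written as a small constant.

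Samples were grouped by surgery as labelled. Symbols were split where a row joins genes, and 1 row was kept per symbol, protein-coding first and then the largest count. Joined rows, such as those of Adam8 with Tubgcp2 and Adamts13 with Cacfd1, do not measure their genes apart. The counts of rows averaging 0.5 FPKM or more (26663) were tested with edgeR 4.0.16 (TMM, quasi-likelihood; 2.52 prior degrees of freedom) in R 4.3.3, tested on simulated data, and p-values were adjusted over all these rows by the Benjamini-Hochberg method. The 6 totals, 75423546 to 87615743, set the precision, and a member of a few counts has little. Alternatives were other scaling and filters, limma 3.58.1 on log2(FPKM + 1), DESeq2 1.42.0, a replicate block and fits without each library in turn. CPM values use TMM factors (0.988 to 1.01).

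The members and lists were chosen with earlier results of these data known. Named by rule were the members called, the 4 Timp genes, the 12 members of highest mean FPKM, the 3 largest and 3 smallest fold changes, the member with most counts in each role group, and the called genes of matrix turnover, of which 1 is not reported here. Other genes were named with their values known. Same-numbered libraries did not deviate together (correlations -0.01, -0.02 and -0.05), so the numbers pair nothing.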

Additional observations from a re-analysis of the deposited data

How the results depend on the processing

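Of 273 refits of 23 named members, 252 kept their direction and their side of the study's limits, 18 changed sign and 3 passed the limits newly. Members called higher numbered 2 with a mean FPKM of at least 1 (45 tested, Mmp3 not among them), 4 with no filter (Mmp10 added) and 3 to 4 with a library left out. Mmp10 is a member only through its CCI counts, so its call is not read. Members called lower numbered 1 with no filter (Mmp13, untested otherwise), and 0 to 1 with a library left out. At an adjusted p under 0.05 edgeR gave 0 (9 higher and 2 lower at an unadjusted p under 0.05) and DESeq2 gave 5, and the cause was not tested. With the replicate block 3 members were higher, 0 lower and 0 passed an adjusted p under 0.05. The called genes of matrix turnover numbered 1 with limma on log2(FPKM + 1), where Bcan alone passed and low levels shrink the fold change, 3 with the replicate block and 2 to 4 with a library left out, 2 without CCI 1.

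Changes of sign were those of members near 0. With a library left out, the log2 fold change ran from -0.0286 to 0.0214 in Adam10, -0.0629 to 0.14 in Adam17, -0.11 to 0.47 in Adam23, -0.0689 to 0.0238 in Adam9, -0.29 to 0.16 in Adamts2, -0.24 to 0.22 in Adamtsl4, -0.22 to 0.11 in Mmp2, -0.00307 to 0.13 in Timp2 and -0.0461 to 0.11 in Timp3. With limma on log2(FPKM + 1) Adam10 was at 0.00868. Members under about 100 counts, such as Mmp10 and Mmp12, are limited by depth.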

Other observations

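Overlapping 7 members the table holds 23 further rows that carry the member's symbol, 5 of them on the opposite strand and 17 with no strand given. All 23 were tested and 3 were called at the study's limits. Of all rows 2.57% were called higher and 1.26% lower. A row on the other strand that overlaps the end of Mmp24 and runs past it had 126, 82 and 125 counts in CCI 1, 2 and 3, against 52, 64 and 36 counts in sham 1, 2 and 3, higher in every CCI library (log2 fold change 1.20, unadjusted p = 0.0101, edgeR), while the Mmp24 gene row was at -0.08. A row within Adamts16 had 40, 34 and 33 counts in CCI 1, 2 and 3, against 64, 60 and 110 counts in sham 1, 2 and 3 (log2 fold change -1.06, unadjusted p = 0.0195, edgeR), while Adamts16 itself was at -0.19. A row within Adamts12 had 58, 103 and 84 counts in CCI 1, 2 and 3, against 45, 29 and 61 counts in sham 1, 2 and 3 (log2 fold change 0.93, unadjusted p = 0.0459, edgeR). CCI 1 and sham 3 overlap there. These rows were named after their values were seen.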
